A study of Mus musculus with 6 samples.

Results

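The HSF1 binding sites of 2 mouse striatal cell lines were compared in cells that had received no heat shock. STHdhQ7/Q7 cells (genotype HdhQ7/Q7, wild-type huntingtin) and STHdhQ111/Q111 cells (genotype HdhQ111/Q111, huntingtin knocked in with a lengthened polyglutamine stretch) were both derived from embryonic mice and both grown in G418 at 33 °C. They are called Q7 and Q111 cells below. Chromatin was crosslinked with formaldehyde and precipitated with an HSF-1 antibody, and the recovered DNA was sequenced (ChIP-seq). The members were chosen by their origin: all 260 peaks of the Q7 list and all 292 peaks of the Q111 list at 33 °C, together 552 of the 8886 peaks in the 4 lists of the series. The other 2 lists come from the same lines after 6 hours at 42 °C and serve here to look up the same sites in another condition. They do not repeat the measurement at 33 °C. Each line and temperature is represented by 1 library, so no difference between the lines has a replicate check, and differences between lines and between libraries cannot be told apart. The labels do not say whether a line is 1 clone, and peak lists hold no expression values with which the striatal label could be checked.

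HSF1 is the transcription factor best known for driving the heat shock response. In unstressed cells most of it is held inactive by chaperones such as HSP90 and HSP70, and on stress it forms trimers that bind heat shock elements, arrays of inverted nGAAn units, near chaperone genes. Some HSF1 binding is also seen without stress, and expanded huntingtin is itself a misfolding protein that engages the chaperone system. The peak sequences and the genes beside them were not analysed here, because no mouse genome or annotation of the build mm9 was at hand. Sites are therefore given by their mm9 position, counted from 1.

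Most Q7 sites were also Q111 sites. Of the Q7 peaks, 184 of 260 (70.8%, 95% Wilson interval 65.0 to 76.0) shared at least 1 base with a Q111 peak. Counted over the Q111 list, 177 of 292 peaks (60.6%, 54.9 to 66.0) shared one with a Q7 peak. Joining peaks that overlap across the 2 lists gave 364 regions, of which 173 held a peak of both lines, 76 a Q7 peak only and 115 a Q111 peak only. The matching rule was rarely a close decision. The smallest overlap was 3 bases, between the Q7 peak chr13:21259322-21259817 and the Q111 peak chr13:21259815-21260144, and the next were 50 and 65 bases. Among peaks counted as unshared, the nearest to a peak of the other list lay 290 bases away for Q7 and 214 bases away for Q111. All shares and intervals are of peaks in these libraries and cover counting error only. The sequencing depth is unknown.

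Sharing rose with the score of a peak within its own list. The authors give each peak a score, read here as a p-value on a -10 log10 scale, so that higher scores stand for lower p-values. Both lists begin just above 90. The lowest Q7 scores were 90.05 for 2 peaks and then 90.74, and the lowest Q111 scores were 90.54 for 2 peaks and then 91.54. In the lowest quintile of the Q7 list (scores 90.05 to 106) 18 of 52 peaks were shared, or 34.6% (23.2 to 48.2). The share was 92.3% (81.8 to 97.0) in the fourth quintile and 96.2% (87.0 to 98.9) in the highest, where 50 of 52 peaks had a Q111 counterpart. The Q111 list ran from 18.6% (10.7 to 30.4) in its lowest quintile, with 11 of 59 peaks shared, to 96.6% (88.5 to 99.1) in its highest, with 57 of 59. In the second quintile the shares were 63.5% (49.9 to 75.2) for Q7 and 36.2% (25.1 to 49.1) for Q111. That quintile covered unlike scores, 107 to 137 in Q7 and 117 to 164 in Q111, and the difference between the lines was not tested. The lower 2 quintiles thus held most of the unshared peaks of both lists. Whether unshared peaks of low score were bound in the other line but stayed under its lowest score was not tested.

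**Figure D1:**
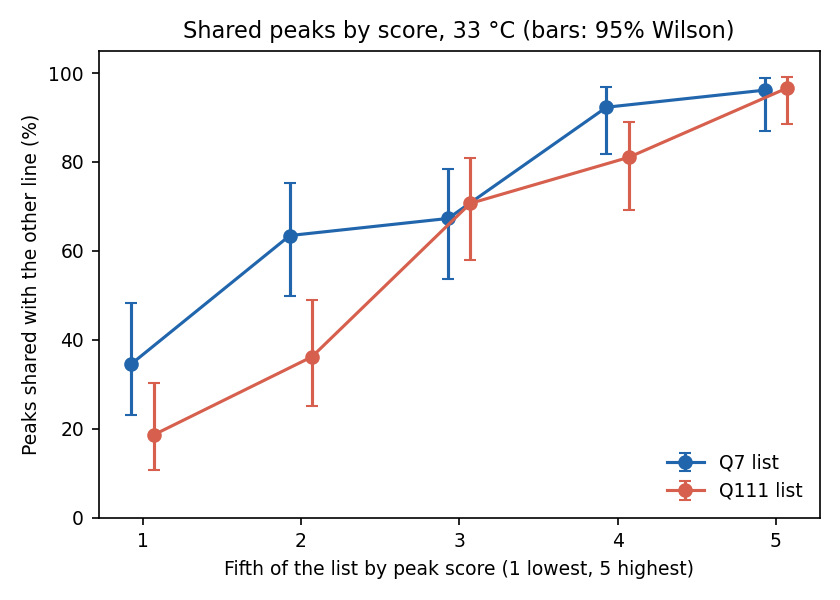
Percentage of peaks at 33 °C that share at least 1 base with a peak of the other line (y axis), by quintile of the peak's own list in order of score (x axis), for the Q7 list (blue) and the Q111 list (red); bars are 95% Wilson intervals. Sharing rises from 34.6% to 96.2% in the Q7 list and from 18.6% to 96.6% in the Q111 list.

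The order of the shared sites agreed in part. Over the 173 shared regions, the scores in the 2 lines had a Spearman correlation of 0.54, and the Pearson correlation of the log10 scores was 0.58. These are descriptions over regions that come from the same pair of libraries and the same peak caller, some of them neighbours. When the 173 regions were ranked within each line, the 2 ranks differed by a median of 33 places. They lay within 20 places of each other for 59 regions and more than 50 places apart for 46. Of the 58 regions in the highest tercile by Q7 score, 37 were also in the highest tercile by Q111 score, 16 in the middle and 5 in the lowest. Of the 58 in the lowest Q7 tercile, 32 were in the lowest Q111 tercile and 7 in the highest. At the head of the whole lists, 28 of the 50 highest Q7 peaks (56.0%, 42.3 to 68.8) overlapped one of the 50 highest Q111 peaks, although 48 of these 50 overlapped some Q111 peak. In the other direction the counts were 27 and 48 of 50. The strongest sites were thus nearly all present in both lists, in an order that differed.

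**Figure D2:**
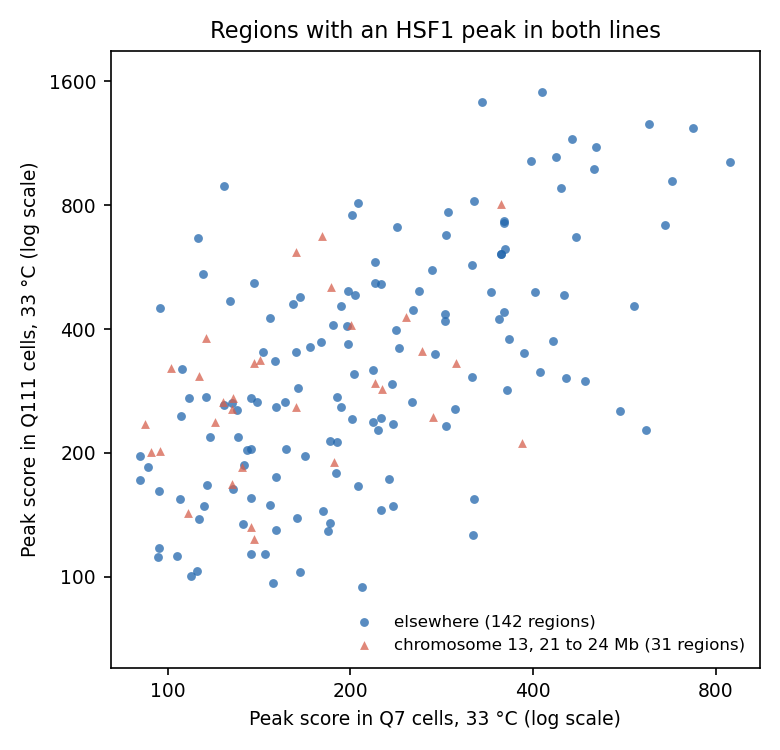
Peak score in Q7 cells (x axis, log scale) against peak score in Q111 cells (y axis, log scale) for the 173 regions with a peak in both lines at 33 °C, each point 1 region and the highest peak of each line taken; triangles mark the 31 regions in the chromosome 13 window from 21 to 24 Mb. Points rise together with wide scatter (Spearman correlation 0.54), and the order of points along an axis is to be read, not the distance between the axes.

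A set of 10 regions stood highest in both lists by the mean of their 2 list positions. The first was at chr1:55144505-55145236, with a Q7 score of 733 (rank 2 of 260) and a Q111 score of 1230 (rank 4 of 292). Next was chr11:58115542-58116396, at ranks 5 and 3, followed by chr15:81229802-81230706, which led the Q7 list with a score of 845 and stood at rank 9 for Q111. The regions at chr5:31190123-31191287 (ranks 3 and 11) and at chr10:12642160-12642614 (ranks 9 and 6) came after them. A second region on chromosome 5, chr5:125873102-125873938, ranked 13 and 5. The region chr18:36961354-36961872 ranked 10 in both lists. The remaining 3 were at chr11:68853632-68854992 (rank 19 in Q7, first in Q111), at chr3:96303919-96305195 (ranks 17 and 7) and at chr11:48647084-48648310 (ranks 4 and 22). All 10 had a peak of both lines at 42 °C, as had 171 of all 173 shared regions. Of the 10, 4 lay in clusters of peaks as defined below.

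Other shared regions stood far apart in the 2 orders. Among the 173, the region at chr2:57034238-57034954 was number 12 by its Q111 score of 892 and number 142 by its Q7 score of 124. At chr12:112083366-112083989 the places were 26 for Q111 (score 667) and 154 for Q7 (score 112). The region chr2:122202849-122203420 held places 34 and 151, chr10:121340864-121341626 places 50 and 164, and chr11:48666779-48667511 places 46 and 141. All 5 thus had a Q7 peak in the lower 2 quintiles of that list and a Q111 peak among the first 50 of the shared ones.

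The opposite order was seen at chr7:36019490-36020029, which was number 39 by its Q7 score of 318 and number 162 by its Q111 score of 126. The region chr10:90644016-90645285 was number 6 for Q7 (score 614) and number 119 for Q111 (score 228). The region at chr10:77084438-77085312 held places 37 and 148, that at chr7:86610956-86611775 places 8 and 109, and that at chr13:21291888-21292509 places 24 and 125. At 42 °C all 10 of these discordant regions had a peak in both lines, as had 171 of all 173 shared regions. The chromosome 2 region from 57034238 then scored 179 in the Q7 list (rank 3119 of 6173) and 1134 in the Q111 list (rank 141 of 2161). The chromosome 10 region from 90644016 scored 1097 in Q7 (rank 506) and 336 in Q111 (rank 709). At chr10:121340864-121341626, the lowest of these 10 in the Q7 order at 33 °C, both lists had a score of 3100 at 42 °C, a value at which 73 Q7 and 12 Q111 peaks are tied.

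Matched peaks were closely placed, and the Q111 peak was usually the wider. In the 173 shared regions the centres of the 2 highest peaks lay a median of 57 bases apart, within 50 bases in 78 regions and more than 200 bases apart in 13. The Q111 peak was wider in 145 of 173 regions (83.8%, 77.6 to 88.6), with a median width of 577 bases against 445 for Q7. Q111 peaks were also wider over the whole lists at 33 °C, with medians of 549 and 420.5 bases. At 42 °C the order was the reverse, with a median of 444 bases in Q111 and 495 in Q7. Among the 188 overlapping pairs of peaks, the Q7 peak lay wholly inside the Q111 peak in 107 and the Q111 peak inside the Q7 peak in 5. The width of a peak depends on how a library was read and on its depth, which is unknown, and their part in the result was not tested.

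In 12 shared regions at least 1 line had several peaks, and 8 of these showed the same pattern, in which 2 Q7 peaks lay under 1 Q111 peak. They were at chr5:125885717-125886709, chr5:125888984-125890192, chr8:97227280-97228421, chr11:48669556-48670820, chr11:68850255-68851622, chr11:68875478-68876879, chr11:68937367-68938276 and chr13:21802278-21803073. At chr11:68875478-68876879 the single Q111 peak measured 1402 bases and ranked second in its list with a score of 1429, and the higher of the 2 Q7 peaks measured 626 bases and scored 329. The reverse, 2 Q111 peaks under 1 Q7 peak, occurred once, at chr1:172967894-172968890. In the other 3 regions each line had 2 peaks, at chr1:173031842-173033547 and at chr13:21259317-21260144 and chr13:23610660-23611699.

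Peaks found at 33 °C in Q7 cells alone were low in their list and rarely lay near a Q111 peak. Their median score was 113, against 190 for shared Q7 peaks, and their median width was 387.5 bases against 441.5. The nearest Q111 peak lay a median of 2.69 Mb away, and 4 of 76 had a Q111 peak within 20 kb. The highest was at chr7:29652460-29652823, with a score of 398 and rank 22 of 260. It was followed by chr6:31126365-31126752 (score 327), chr19:17214816-17215342 (score 265), chr5:152171121-152171597 (score 247) and chr11:56905154-56905704 (score 228). The next 5 scored between 169 and 193 and lay at chr8:20020097-20020610, chr3:96961871-96962348, chr14:26007193-26007585, chr1:36501542-36501856 and chr11:55919253-55919494. All 10 had a Q7 peak at 42 °C, against 63 of all 76 Q7-only regions, and for 5 of the 10 its score was at the tie of 3100. A Q111 peak was present at 42 °C in 8 of the 10, the exceptions being the regions on chromosomes 8 and 3. Over all Q7-only regions it was present in 46 of 76. The site on chromosome 7 from 29652460, which had no Q111 peak at 33 °C, scored 338 in the Q111 list at 42 °C (rank 706 of 2161).

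Peaks found at 33 °C in Q111 cells alone also scored low as a whole, with a median of 125 against 294 for shared Q111 peaks. Their median width was 505 bases against 576. The 18 in the chromosome 13 window from 21 to 24 Mb were not low, with a median score of 207 in a list whose median is 208. Outside that window the median of the other 97 was 117. Of the Q111-only peaks, 24 of 115 had a Q7 peak within 20 kb, or 20.9% (14.4 to 29.2), against 5.26% (2.07 to 12.8) of the Q7-only peaks. This difference, which was not tested, rested largely on the same window, which held 13 of the 24. Outside it the shares were 11.3% (11 of 97) and 5.33% (4 of 75). The highest lay at chr14:51708935-51709576, with a score of 819 and rank 15 of 292. It stood between 2 shared regions, chr14:51707985-51708737 with scores of 157 in Q7 and 204 in Q111, and chr14:51710001-51710686 with scores of 90.05 and 171. The nearest Q7 peak was 250 bases away. At 42 °C the middle site had a peak in both lines, with scores of 435 in Q7 and 1457 in Q111. The second was at chr13:21371451-21371888 (score 510).

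Next came chr8:113154157-113155374. It was the widest of the Q111-only sites named here at 1218 bases, scored 417 at 33 °C, stood near the end of the Q111 list at 42 °C (score 103, rank 1913 of 2161) and had no Q7 peak at either temperature. The other 7 were at chr12:53704635-53705134 (score 411), chr13:23524509-23525317 (score 395), chr3:96301499-96302037 (score 378), chr15:81560202-81560743 (score 334), chr2:122201093-122201660 (score 314), chr13:21314124-21314699 and chr13:21307176-21307531 (scores 309 and 294). Each of these 7 had a peak of both lines at 42 °C, against 71 of all 115 Q111-only regions. Of the 10 highest Q111-only sites, 4 lay in the chromosome 13 window from 21 to 24 Mb, and none of the 10 highest Q7-only sites did. That window held 18 of all 115 Q111-only peaks and 1 of all 76 Q7-only peaks.

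Basal sites were unevenly spread along the chromosomes. Peaks of 1 list whose gap was at most 20 kb were chained into clusters. Both lists then held 27 clusters, with 90 of 260 Q7 peaks (34.6%, 29.1 to 40.6) and 109 of 292 Q111 peaks (37.3%, 32.0 to 43.0). The closest neighbours in a list were 6 bases apart for Q7 and 5 for Q111, and gaps of at most 1 kb numbered 32 and 37. Of the Q7 clusters 23 touched a Q111 cluster, and of the Q111 clusters 22 touched a Q7 cluster, so largely the same places were clustered in both lines.

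Clustered Q7 peaks were nearly all shared. Of these, 88 of 90 (97.8%, 92.3 to 99.4) had a Q111 counterpart, against 96 of 170 isolated Q7 peaks (56.5%, 49.0 to 63.7) and 70.8% of the whole list. Every one of the 66 Q7 peaks in chains of 3 or more was shared. In the 8 regions with 2 Q7 peaks under 1 Q111 peak, both Q7 peaks count here as clustered and as shared. Such pairs are not independent, which the intervals do not take into account. The contrast was present among peaks of low score too: in the lower 2 quintiles of the Q7 list, 25 of 27 clustered and 26 of 77 isolated peaks were shared. The 2 clustered Q7 peaks without a counterpart lay at chr14:51683469-51683740 and at chr17:45709336-45709866. The latter was 290 bases from the nearest Q111 peak, and its region was at the tied score of 3100 in both lines at 42 °C.

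Clustered Q111 peaks were shared in 83 of 109 cases (76.1%, 67.3 to 83.2) and isolated ones in 94 of 183 (51.4%, 44.2 to 58.5), against 60.6% of the whole list. In the lower 2 quintiles of the Q111 list 12 of 19 clustered and 20 of 98 isolated peaks were shared, and in the upper 3 quintiles 71 of 90 (78.9%, 69.4 to 86.0) and 74 of 85 (87.1%, 78.3 to 92.6), with overlapping intervals. Outside the chromosome 13 window from 21 to 24 Mb the upper 3 quintiles had 47 of 54 clustered (87.0%) and 70 of 81 isolated (86.4%) Q111 peaks shared. All 27 Q111 clusters held at least 1 shared peak, and 14 consisted of shared peaks alone, as did 25 of the 27 Q7 clusters. Each of the 26 unshared Q111 peaks in clusters thus lay in a chain that also held a shared peak. Not all of them were close to a Q7 peak, and the one at chr13:21325769-21326249 lay 33480 bases from the nearest. Of these 26, 17 lay in the chromosome 13 window. Outside that window, 54 of 63 clustered Q111 peaks were shared (85.7%, 75.03 to 92.3).

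**Figure D3:**
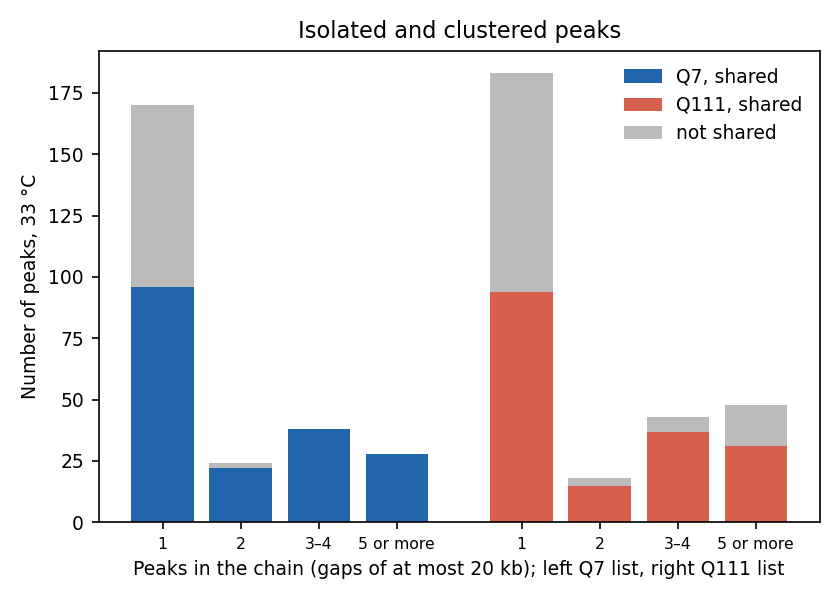
Number of peaks at 33 °C (y axis) by the number of peaks in their chain (x axis; neighbouring peaks of 1 list joined across gaps of at most 20 kb), for the Q7 list (left) and the Q111 list (right); the coloured part of each bar is shared with the other line and the grey part is not. Chains of 3 or more hold 66 Q7 peaks, all shared, and 91 Q111 peaks, of which 23 are not shared.

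The largest clusters were on chromosome 13, in a stretch known to hold the largest histone gene cluster of the mouse together with many tRNA genes. In Q111 cells they comprised 14 peaks in chr13:23492540-23559224, 9 in chr13:23592695-23622432, 8 in chr13:21291888-21371888 and 7 in chr13:21252513-21264869. The Q7 list had 9 peaks in chr13:23517276-23559206, 7 in chr13:23595746-23622394 and 4 each in chr13:21252477-21260111 and chr13:22107376-22121455. In the cluster chr13:21291888-21371888, 2 of the 8 Q111 peaks had a Q7 counterpart, the smallest share among these. In the whole window from 21 to 24 Mb 34 of 35 Q7 peaks but 33 of 51 Q111 peaks were shared. All 18 unshared Q111 peaks there had a peak of both lines at 42 °C, as had every other 33 °C peak of the window. Regions shared in the window stood lower in the Q7 order than in the Q111 order, with a median place of 122 against 96 among the 173. Of the 31 in the window, 20 had the higher place in Q111. Over all 173 the higher place was in Q111 for 88 and in Q7 for 82, and outside the window for 68 and 71.

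Outside chromosome 13, neither line had the larger number of peaks in every leading cluster. Each place below with more Q7 than Q111 peaks held at least 1 Q111 peak that overlapped 2 Q7 peaks, as named above. The Q7 excess there was thus one of peaks and not of separate regions. There were 6 Q7 peaks in chr11:48631917-48670530 and 5 Q111 peaks in chr11:48631711-48670820. A second place on that chromosome held 4 Q111 peaks in chr11:68850255-68876879, with a median score of 1119 within a list whose median is 208. The Q7 list had 6 peaks in that span, 4 in chr11:68850368-68855540 and 2 in chr11:68875715-68876863, and all peaks of both lines there were shared. A further 4 Q7 peaks lay in chr11:68932137-68939022, beside 4 Q111 peaks in chr11:68923899-68938894. On chromosome 5 there were 6 Q7 peaks in chr5:125873102-125890192 and 4 Q111 peaks in chr5:125873280-125890183, and all of them were shared. Chromosome 17 had 4 peaks of each line between 23683172 and 23687570, all shared. On chromosome 1 the Q7 list had 3 peaks in chr1:172963890-172968882 and the Q111 list 5 in chr1:172963709-172975321. There 1 Q7 peak overlapped 2 Q111 peaks, and 1 further Q111 peak was unshared.

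Both lists had peaks on all 19 autosomes and on the X chromosome. Chromosome 13 carried the most, with 37 Q7 peaks (14.2% of the list) and 57 Q111 peaks (19.5%), followed by chromosome 11 with 32 (12.3%) and 29 (9.93%). At 42 °C chromosome 13 carried 5.18% of the Q7 and 7.91% of the Q111 list, and chromosome 11 carried 7.68% and 8.05%. Q111 peaks outnumbered Q7 peaks on 12 chromosomes, Q7 peaks outnumbered Q111 peaks on 7, and the numbers were equal on chromosome 19. The largest excess of Q111 peaks was on chromosome 13, and the largest excess of Q7 peaks was on chromosome 4, with 11 against 5.

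Chromosomes differed in how many of their peaks were shared. On chromosome 13, 36 of 37 Q7 peaks (97.3%, 86.2 to 99.5) but 35 of 57 Q111 peaks (61.4%) were shared, and 22 Q111 peaks there were unshared. Chromosome 6 was high from both sides, with 18 of 20 Q7 peaks (90%) and 18 of 21 Q111 peaks (85.7%). Chromosome 15 was low from both sides, with 2 of 12 Q7 peaks (16.7%, 4.70 to 44.8) and 2 of 9 Q111 peaks (22.2%). These 2 shared regions included the highest-scoring Q7 peak, chr15:81229928-81230706. The 10 unshared Q7 peaks of chromosome 15 scored between 93.0 and 158, 7 of them in the lower 2 quintiles of the list. Chromosome 8 likewise had 4 of 11 Q7 and 3 of 9 Q111 peaks shared. On chromosome 4 only 4 of 11 Q7 peaks were shared (36.4%, 15.2 to 64.6), but 4 of its 5 Q111 peaks were. These chromosomes were singled out after their values were seen.

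**Figure D4:**
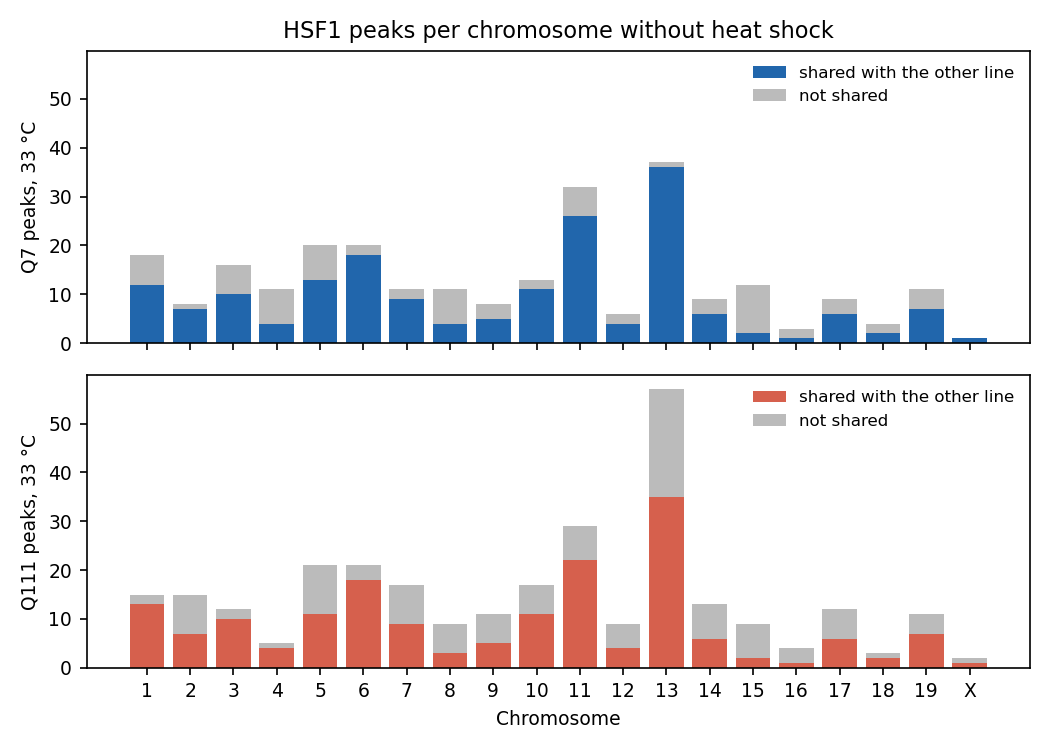
Number of HSF1 peaks at 33 °C (y axis) on each chromosome (x axis) in Q7 cells (upper panel) and Q111 cells (lower panel), with peaks shared with the other line in colour and the others in grey. Chromosome 13 has 37 Q7 peaks, of which 1 is unshared, and 57 Q111 peaks, of which 22 are unshared; on chromosome 15 most peaks of both lines are unshared.

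The lists at 42 °C were then searched at the same regions. Of all 364 regions, 84.6% had a Q7 peak and 82.7% a Q111 peak after heat shock. Regions shared at 33 °C had a peak of both lines at 42 °C in 171 of 173 cases. Among the 76 Q7-only regions, 63 had a Q7 peak (82.9%, 72.9 to 89.7) and 46 a Q111 peak (60.5%, 49.3 to 70.8) at 42 °C. Among the 115 Q111-only regions, 83 had a Q111 peak (72.2%, 63.4 to 79.5) and 74 a Q7 peak (64.3%, 55.3 to 72.5). Of the line-only sites, 46 Q7-only and 71 Q111-only regions thus held a peak of both lines after heat shock. A further 17 Q7-only regions kept to Q7 cells at 42 °C and 12 Q111-only regions kept to Q111 cells. In 3 Q111-only regions the 42 °C peak was in Q7 cells alone, and no Q7-only region showed the opposite switch. The Q7 list at 42 °C is the longer one, with 6173 peaks against 2161, and these counts are not corrected for that.

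**Figure D5:**
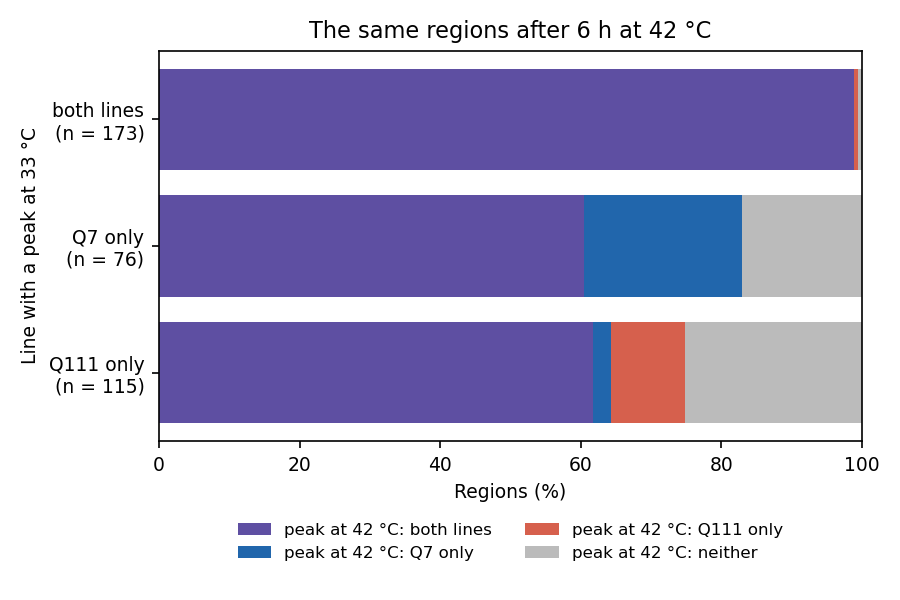
Percentage of regions (x axis) with a 42 °C peak in both lines, in Q7 cells only, in Q111 cells only or in neither, for regions with a 33 °C peak in both lines, in Q7 cells only or in Q111 cells only (y axis, with the number of regions). Of the shared regions 98.8% have a peak of both lines at 42 °C, against 60.5% of Q7-only and 61.7% of Q111-only regions.

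Where line-only regions had a peak at 42 °C it was often a high one. In the Q7 list at 42 °C, 41 of 63 Q7-only regions with a peak lay in the highest decile of that list by score, as did 62 of 171 shared regions and 28 of 74 Q111-only regions. In the Q111 list at 42 °C the counts were 20 of 46 Q7-only, 72 of 172 shared and 31 of 83 Q111-only regions. On chromosome 15 the Q7-only peak from 75772960 to 75773580, with a score of 145 at 33 °C, was at the tied score of 3100 in both lines at 42 °C. The Q7-only peak at chr15:31531334-31531889, with a score of 99.3 at 33 °C, scored 2482 in Q7 and 314 in Q111 cells. Both were singled out after their values were seen. The 18 Q111-only regions in the chromosome 13 window, like all other regions there, had peaks of both lines at 42 °C. They included 1 in the highest decile of the Q7 list and 6 in that of the Q111 list.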

How the data were processed

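The authors deposited 1 peak list for each HSF1 library, which gives for each peak its position, a name and a score. MACS 1.4.0rc2 and the build mm9 are named per the submitters' processing notes. The deposited score was read as -10 times the base-10 logarithm of the p-value, an inference from the usual output of that tool. The aligner, any read filters and the depth were not given in the sources used here, and the 2 IgG libraries were not analysed here. Overlaps, regions, ranks and chains of peaks were computed with pandas 2.3.3, scipy 1.17.1 and numpy 2.4.6 under Python 3.11.15 and tested on simulated data, and figures were drawn with matplotlib 3.10.9. The counts of shared peaks equalled those of bedtools 2.31.1. Scores were ranked within a list and never subtracted between lists. With 1 library per group no test was made, and shares carry 95% Wilson intervals. The regions named are the 10 highest shared by mean percentile in the 2 lists, the 10 highest of each line-only set, the 5 with the largest difference of rank in each direction, the 5 largest clusters of each list (ties kept, with their counterparts) and regions with several peaks of a line. The members, lists and windows were chosen with earlier results of these data known. Alternatives were score minima of 100 and 200, an overlap of 50% of the shorter peak, up to 500 bases between peaks, equal list lengths, autosomes only, leaving out dense peaks (at least 3 further peaks of the list within 20 kb), leaving out the chromosome 13 window, and chains of 10, 50 and 100 kb.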

Additional observations from a re-analysis of the deposited data

How the results depend on the processing

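The 32 results were recomputed 153 times with 1 choice changed. In 135 cases the value lay inside the main interval (for numbers of regions, within 1.5 times the main number), and in 18 it lay outside. Most of the moved values came from a minimum score of 200, which keeps 88 of 260 Q7 and 152 of 292 Q111 peaks. The shared percentage then became 86.4 for Q7 and 50 for Q111, with 74 regions of both lines (173 as deposited), 12 of Q7 only (76) and 76 of Q111 only (115), and the Spearman correlation over shared regions was 0.37. Of these line-only regions, 7 of the 12 and 56 of the 76 had a peak of the other line in the lists as deposited, so most were shared there. With that minimum, 100% of Q7-only regions had a 42 °C peak in the same line and 100% in the other line, and of Q111-only regions 100% had one in the same line and 97.4% in the other. A minimum score of 100 moved 1 value, the percentage of Q111-only regions with a Q7 peak at 42 °C, to 73.3. Without dense peaks 60.8% of Q7 peaks were shared. Without the chromosome 13 window, 27.6% of the Q7 and 26.1% of the Q111 list lay in clusters and 85.7% of clustered Q111 peaks were shared. Chaining at 100 kb put 41.2% of the Q7 list in clusters. In an alternative chosen after seeing the data, a minimum score of 200 left 10.2% of the Q7 list on chromosome 13. In another, without the chromosome 13 window, 87.0% of clustered Q111 peaks of the upper 3 quintiles were shared. The cause was not tested. No paired analysis was possible because each group holds 1 library. Depth is unknown and limits every count of unshared peaks.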

Other observations

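A set of 43 regions had a peak at 33 °C and none at 42 °C in either line. They comprised 29 of 115 Q111-only regions (25.2%, 18.2 to 33.9), 13 of 76 Q7-only regions (17.1%, 10.3 to 27.1) and 1 of 173 shared regions. The intervals of the 2 line-only sets overlap. The 43 regions were spread over 18 chromosomes and were all isolated, with no other 33 °C region within 20 kb. Of all unshared peaks, 74 of 76 in Q7 and 89 of 115 in Q111 were isolated within their own list. The scores of the 43 regions at 33 °C were low, with a median of 104 and a maximum of 178. The maximum was in Q111 cells at chr14:51427028-51427532 (rank 167 of 292). In Q7 cells the highest was at chr3:87709923-87710288 (score 146). The shared region was at chr6:56654461-56654962, with scores of 109 in Q7 and 100 in Q111 cells. These regions were counted after the data were examined.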
